A study of Homo sapiens with 5 samples.

Results

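Replication-dependent histone genes were taken as every row of a ribosome footprint count table whose symbol begins with HIST1H, HIST2H, HIST3H or HIST4H, apart from 1 H1 row that was not analysed here. This gave 55 copies among 14084 rows. By family they were 5 copies of the linker histone H1, 15 of H2A, 13 of H2B, 11 of H3 and 11 of H4. Histone copies without a row are not covered, so each family sum, share and rank is over the rows present. The libraries came from HAP1, an adherent, near-haploid human line derived from a chronic myeloid leukaemia line, and fell into a METTL18 knockout group (n = 3) and a wild-type group (n = 2). The METTL18 enzyme methylates a histidine in the ribosomal protein RPL3, and the study asked for its function and targets. No drug treatment, other allele or count of knockout clones is given in the labels. In both groups cells were frozen in the dish and lysed in the presence of cycloheximide, which holds ribosomes in place.

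Histone proteins package newly made DNA, and the replication-dependent genes supply them in S phase. These genes lie in clusters of many near-identical copies, most lack introns, and their mRNAs end in a conserved stem-loop in place of a poly(A) tail. The stem-loop binding protein SLBP holds that loop, while NPAT and CASP8AP2 act at the histone gene loci. Several copies encode the same protein, so a family can be supplied by different copies in different cells.

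A footprint count grows with the amount of an mRNA and with the ribosomes on it, and these were not separated here. The labels name polyA RNA as the molecule, although their protocol describes nuclease-protected fragments. Replication-dependent histone mRNAs mostly lack a poly(A) tail, so a poly(A) selection, if one was made, would bear on every histone level given here, and this was not tested. Library totals were 16339574, 17629199 and 16921863 counts in the knockout and 5302160 and 4887380 in the wild type, a 3.33-fold gap in mean depth between the groups. METTL18 itself was lower in the knockout, at 2.18, 1.97 and 2.16 CPM in the knockout libraries, against 5.56 and 5.85 CPM in the wild-type libraries (log2 fold change -1.44, SE 0.25, adjusted p = 2.00e-06). Levels are in CPM, counts scaled to a common library size after TMM normalization, and each fold change sets the knockout over the wild type. Adjusted p-values are from edgeR's quasi-likelihood test with Benjamini-Hochberg adjustment over the 11335 rows tested, with 0.05 as the threshold. Separate cultures or clones are not stated in the labels, so the p-values measure only a spread among these 5 libraries that may be technical. Of the HAP1 markers, BCR was at 8.45, 7.68 and 8.18 CPM in the knockout and 6.23 and 7.13 CPM in the wild type and ABL1 at 4.89, 5.04 and 4.44 CPM in the knockout and 1.52 and 0.732 CPM in the wild type. Of the markers of adherent cells, VIM was at 1050.5, 1059 and 1096 CPM in the knockout and 120.4 and 138 CPM in the wild type, ACTN1 at 298, 279 and 291 CPM in the knockout and 185 and 179 CPM in the wild type and KRT18 at 170.0, 173 and 169 CPM in the knockout and 149 and 141 CPM in the wild type. Of 8 blood-lineage markers, 3 were in the table, with summed levels of 0.127 to 0.246 CPM in the knockout and 0.337 and 0.366 CPM in the wild type. The summed blood-lineage level was thus near 0 in both groups. CD33 was at 0 in all 5 libraries, CD34 at 0 in the knockout, and ITGAM at 0 in the wild type.

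The stem-loop that marks these mRNAs is shown as it stands in the GENCODE release 29 transcripts, since it is the feature that sets the genes apart. The letters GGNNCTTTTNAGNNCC were searched on the mRNA strand in the first 100 bases of the annotated 3′ UTR. They were found in 19 of the 22 copies whose annotated UTR had at least 20 bases, and in 1 of 13099 other rows with a UTR of at least 100 bases (0.00763%). The remaining copies have no such UTR in that annotation and were not searched. Letters are given as DNA, and the capitals mark the loop.
HIST1H4B, HIST1H4E, HIST1H4J and HIST4H4: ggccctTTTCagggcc
HIST1H4I: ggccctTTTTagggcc
HIST1H2AC, HIST1H2AE, HIST1H2AI, HIST1H2BG, HIST1H2BH, HIST1H2BL, HIST1H3H, HIST2H2BF, HIST3H2A and HIST3H2BB: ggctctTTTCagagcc
HIST1H2BF, HIST1H3G and HIST3H3: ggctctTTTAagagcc
HIST1H2AG: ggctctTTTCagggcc
The stem beginning ggccct was seen in the 5 H4 copies and the stem beginning ggctct in the 14 copies of H2A, H2B and H3. HIST4H4, whose level was 4.43 log2 units higher in the knockout, carried the same 16 bases as HIST1H4E, which was 1.27 higher. HIST2H2BF, the copy that fell, carried the same bases as HIST1H2BG, which rose by 1.35.

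Promoters are shown for 6 copies on which the results below turn, as pairs from 1 family whose members changed by different amounts. They are RefSeq windows of 300 bases on GRCh38.p14, from 250 before the annotated start to 50 after it, read 5′ to 3′ on the gene's strand. RefSeq windows were used for 49 of the 55 copies. HIST1H3J, HIST1H3I, HIST1H4C, HIST1H4A and HIST1H2AH were not matched, and the window listed for HIST1H3D was left out because its start lies 2043 bases from that copy, beyond the limit of 1000. Capitals mark 4 motifs on either strand, which are TATAAA of the core promoter, the CCAAT box, the octamer ATTTGCAT, and the letters GGTCCG seen in H4 promoters. The motifs were chosen after the data were seen.
HIST1H3C (chr6:26045134-26045433, plus strand) and HIST1H3B (chr6:26032050-26032349, minus strand) are H3 copies, with log2 fold changes of 9.53 and 0.49.
HIST1H3C: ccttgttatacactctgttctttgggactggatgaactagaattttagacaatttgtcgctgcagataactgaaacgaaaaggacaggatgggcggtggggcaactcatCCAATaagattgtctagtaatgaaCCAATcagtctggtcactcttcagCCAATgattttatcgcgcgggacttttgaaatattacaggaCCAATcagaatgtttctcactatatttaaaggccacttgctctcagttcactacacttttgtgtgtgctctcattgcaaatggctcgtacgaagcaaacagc
HIST1H3B: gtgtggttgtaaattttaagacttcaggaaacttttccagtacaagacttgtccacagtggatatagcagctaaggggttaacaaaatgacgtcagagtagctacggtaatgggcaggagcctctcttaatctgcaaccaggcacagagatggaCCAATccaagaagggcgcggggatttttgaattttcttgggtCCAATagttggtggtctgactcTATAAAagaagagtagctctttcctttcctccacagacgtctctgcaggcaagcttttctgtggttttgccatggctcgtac
HIST4H4 (chr12:14771082-14771381, minus strand) and HIST1H4E (chr6:26204360-26204659, plus strand) are H4 copies, with log2 fold changes of 4.43 and 1.27.
HIST4H4: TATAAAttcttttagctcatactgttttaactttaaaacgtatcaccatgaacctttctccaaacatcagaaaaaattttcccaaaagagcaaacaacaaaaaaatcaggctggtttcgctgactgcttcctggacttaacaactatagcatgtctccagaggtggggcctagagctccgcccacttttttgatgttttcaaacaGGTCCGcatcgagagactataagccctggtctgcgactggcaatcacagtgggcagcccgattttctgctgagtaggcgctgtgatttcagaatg
HIST1H4E: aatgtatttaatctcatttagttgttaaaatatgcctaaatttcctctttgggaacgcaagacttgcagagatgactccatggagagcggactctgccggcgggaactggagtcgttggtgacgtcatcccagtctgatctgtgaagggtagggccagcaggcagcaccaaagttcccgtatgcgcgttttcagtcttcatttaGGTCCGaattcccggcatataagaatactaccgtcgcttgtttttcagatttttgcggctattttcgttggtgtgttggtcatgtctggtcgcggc
HIST2H2BF (chr1:149812321-149812620, minus strand) and HIST1H2BG (chr6:26216639-26216938, minus strand) are H2B copies, with log2 fold changes of -0.38 and 1.35.
HIST2H2BF: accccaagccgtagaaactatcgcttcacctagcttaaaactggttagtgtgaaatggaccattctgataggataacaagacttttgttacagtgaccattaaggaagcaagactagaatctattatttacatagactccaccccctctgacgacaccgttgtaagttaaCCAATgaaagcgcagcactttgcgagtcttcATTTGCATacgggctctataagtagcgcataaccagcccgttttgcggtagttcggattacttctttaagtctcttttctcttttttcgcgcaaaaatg
HIST1H2BG: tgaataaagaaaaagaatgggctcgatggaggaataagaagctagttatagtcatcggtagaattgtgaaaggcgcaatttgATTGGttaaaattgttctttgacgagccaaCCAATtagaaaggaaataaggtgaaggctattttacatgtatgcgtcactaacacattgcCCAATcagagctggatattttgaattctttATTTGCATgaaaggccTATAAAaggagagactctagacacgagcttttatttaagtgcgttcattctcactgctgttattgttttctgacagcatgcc
The HIST1H3C window held CCAAT 4 times and no TATAAA, and that of HIST1H3B held CCAAT 2 times and TATAAA once. The window of HIST1H3G, whose log2 fold change was 0.70, also held CCAAT 4 times and no TATAAA. A link between these motifs and the fold changes was not tested. Both H4 windows held GGTCCG once and no CCAAT, and the TATAAA of HIST4H4 lay at the far 5′ end of its window. HIST2H2BF and HIST1H2BG each held the octamer once, with 1 and 3 CCAAT, and of these windows only that of HIST1H2BG held TATAAA. Over these 49 copies, TATAAA was present in 67.3% of windows, against 12.0% of 27305 RefSeq promoters of the same length. CCAAT was present in 87.8% against 35.7%, the octamer in 42.9% against 1.80%, and GGTCCG in 20.4% against 11.2%. The octamer was found in 11 of 14 H2A and 10 of 13 H2B windows and in none of the 8 H3, 9 H4 or 5 H1 windows. Windows of H2A and H2B copies that start back to back overlap, so a motif there can count for both copies. HIST1H2AD (26199244 to 26199543) and HIST1H2BF (26199266 to 26199565) are such a pair. The motif shares over the 49 copies are therefore not from separate stretches of DNA. GGTCCG was found in 8 of 9 H4 windows. None of the 4 motifs overlaps another by its letters in these 6 windows.

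Footprints on these genes were more abundant in the knockout. Together the 55 copies held 3.79, 3.74 and 3.81% of all counts in the knockout libraries, against 2.20 and 2.16% in the wild-type libraries. The group means were 3.78% ± 0.0377 in the knockout (SD, n = 3) and 2.18% ± 0.0320 in the wild type (SD, n = 2), with no overlap between groups. A two-sided exact permutation test over libraries gave p = 0.2, which is the smallest that 3 against 2 libraries allow. Summed into 1 row, the copies stood at 40762 CPM ± 238 in the knockout and 19463 CPM ± 265 in the wild type, a log2 fold change of 1.07 ± 0.028 (SE, edgeR adjusted p = 8.19e-30). In bulk libraries, a larger share of cells that make histones and more footprints in each such cell cannot be told apart.

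Copy by copy, 50 of the 55 passed the filter on low counts and were tested. Of these, 48 were higher in the knockout, 1 was lower (HIST2H2BF) and 1 did not pass (HIST2H2AC). Among all 11335 rows tested, 74.4% were called in either direction, 37.8% as higher and 36.6% as lower. Every knockout library stood above every wild-type library for 47 of the 50 copies, as it did for 42.5% of all rows, and below for 1 copy, as it did for 41% of all rows. The median log2 fold change of the tested copies was 1.47, beside 0.016 for all rows. A log2 fold change above 1 was called in 35 of the 50 copies and 12.8% of all rows, one above 2 in 16 copies and 4.43% of rows, and one above 4 in 8 copies and 1.76% of rows. HIST1H2AJ and HIST1H4L are among these 8 but had no wild-type counts, so their fitted values depend on the prior count, and 6 copies were above 4 with both set to their bounds. The tested copies include 11 that stood under 10 CPM in the wild type, and copies of that kind pass the filter only through the knockout when they are high there.

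**Figure D1:**
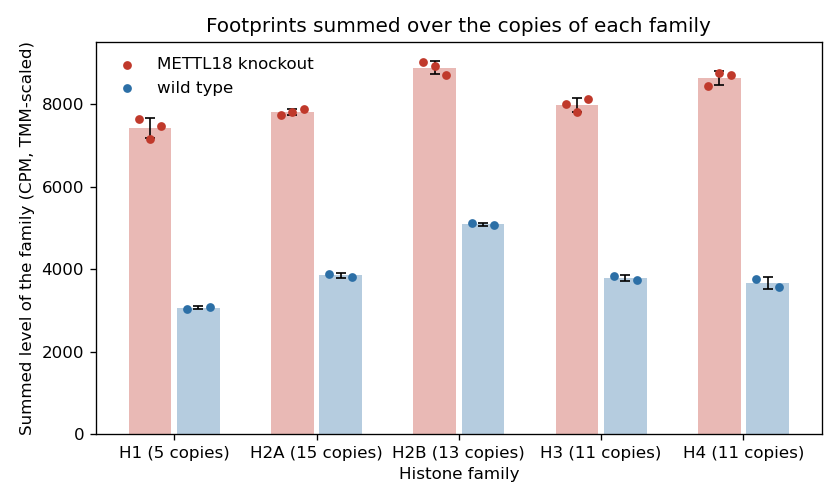
Summed footprint level (CPM after TMM scaling) of the copies of each histone family. Bars are group means, error bars are SD and points are libraries (knockout n = 3, wild type n = 2). In all 5 families each knockout library stood above both wild-type libraries.

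All 5 family sums were higher in the knockout, by different amounts. The H1 sum was 7639, 7169 and 7476 CPM in the knockout libraries, against 3035 and 3091 CPM in the wild-type libraries (log2 fold change 1.28 ± 0.034, SE). The H4 sum was 8441, 8770.4 and 8711 CPM in the knockout libraries, against 3761 and 3569 CPM in the wild-type libraries (1.24 ± 0.033). The core histone H3 followed, at 8007, 7815 and 8135 CPM in the knockout libraries, against 3837 and 3739 CPM in the wild-type libraries (1.08 ± 0.033). These sums were 2.42-fold, 2.36-fold and 2.11-fold higher in the knockout, with adjusted p from 9.37e-30 to 6.46e-28 in edgeR's test. The H2A sum was 7744, 7814 and 7883 CPM in the knockout libraries, against 3896 and 3807 CPM in the wild-type libraries (1.02 ± 0.032, adjusted p = 2.12e-27). The H2B sum was 9037, 8920.1 and 8725 CPM in the knockout libraries, against 5122 and 5069.5 CPM in the wild-type libraries (0.81 ± 0.031, adjusted p = 3.28e-24). H2A and H2B form the dimer of the nucleosome core, and the H2B sum had the smallest of the 5 fold changes.

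The makeup of the histone footprints shifted with it. H2B held 21.8% ± 0.439 of the histone counts in the knockout and 26.2% ± 0.167 in the wild type. H1 held 18.2% ± 0.494 in the knockout and 15.7% ± 0.418 in the wild type, and H4 21.2% ± 0.509 in the knockout and 18.8% ± 0.439 in the wild type. The H2A share was 19.2% in the knockout and 19.8% in the wild type. For these 4 families the groups did not overlap. The H3 share was 19.6% in the knockout and 19.5% in the wild type, with overlapping groups. Per kilobase of coding sequence, the level of the summed H4 row was highest in the knockout, at 27694 CPM per kb, against 11746 in the wild type. On the same scale H2B stood at 23344 in the knockout and 13374 in the wild type, where it was the highest. H2A, H3 and H1 stood at 19927, 19430.0 and 11393 CPM per kb in the knockout, and at 9822, 9216 and 4701 CPM per kb in the wild type.

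Counts were also spread over more copies in the knockout. The effective number of copies is the inverse of the summed squared shares, which equals the number of copies when all are used alike and 1 when a single copy holds everything. For H3 it was 5.32 ± 0.0464 in the knockout and 3.13 ± 0.0320 in the wild type. For H2B it was 7.47 ± 0.152 in the knockout and 5.45 ± 0.0161 in the wild type, and for H4 5.89 ± 0.0460 in the knockout and 4.44 ± 0.00371 in the wild type. H2A and H1 moved less, at 7.82 and 2.33 in the knockout and 7.59 and 2.07 in the wild type. In every family the knockout libraries stood above the wild-type libraries. As a share of its family sum, a copy was higher in every knockout library for 31 of the 55 copies, lower for 13 and overlapping for 11. Copies with few counts are included. Over all rows tested, CPM stood above in every knockout library for 42.5% and below for 41%, so separation alone is common here. Coding lengths ran from 642 to 681 bases in H1 and from 387 to 396 bases in H2A, and differed as little in the other families, so these shares are close to a comparison per length.

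**Figure D2:**
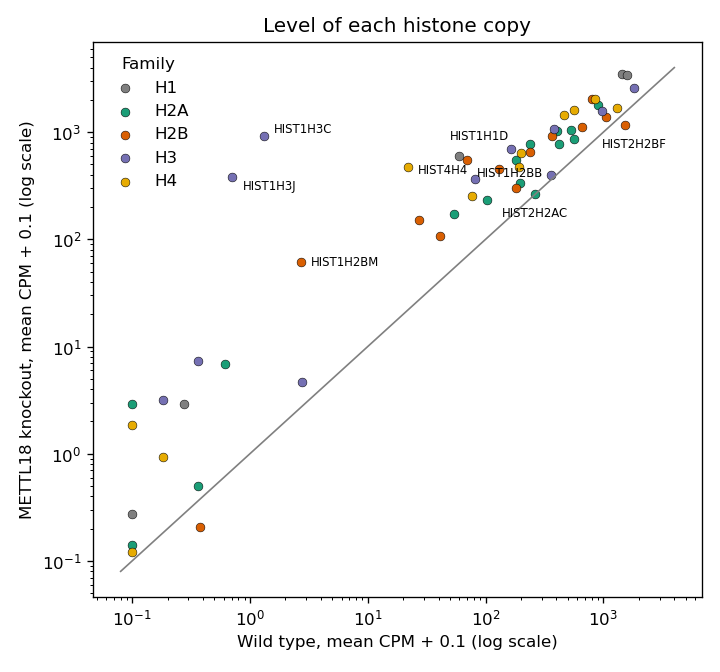
Mean level of each of the 55 copies in the knockout (vertical, n = 3) and in the wild type (horizontal, n = 2), in CPM plus 0.1 on log scales. The line marks equal levels and points at 0.1 had no counts. HIST1H3C and HIST1H3J lie farthest above the line, and HIST2H2BF is the copy above 100 CPM that lies under it.

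H3 held the copies that differed most. HIST1H3C (transcript ENST00000612966, hg38 chromosome 6, 26045411 to 26045821, plus strand) was nearly silent in the wild-type libraries and abundant in the knockout, at 903, 911 and 939.9 CPM in the knockout libraries, against 1.35 and 1.10 CPM in the wild-type libraries. HIST1H3J (transcript ENST00000359303, hg38 chromosome 6, 27890382 to 27890792, minus strand) showed the same pattern, at 388, 373 and 382 CPM in the knockout libraries, against 0.674 and 0.549 CPM in the wild-type libraries. HIST1H3A to HIST1H3J encode the same H3 protein, so these copies add to a shared product. HIST1H3C had a log2 fold change 9.53, SE 0.10, adjusted p = 1.19e-44, and HIST1H3J a log2 fold change 9.25, SE 0.13, adjusted p = 1.36e-40. In raw counts HIST1H3C had 13681, 14828 and 14814 counts in the knockout libraries, against 8 and 6 in the wild-type libraries, and HIST1H3J had 5875, 6076 and 6020 counts in the knockout libraries, against 4 and 3 in the wild-type libraries. With so few wild-type counts the folds rest on 14 and 7 counts over that group, and their size is less certain than their direction. Each SE was worked back from the test against no change, so it understates the error in the size of such folds. HIST1H3C took 11.3, 11.7 and 11.6% of the H3 sum in the knockout libraries, against 0.0351 and 0.0294% in the wild-type libraries. Its gain made up 21.8% of the rise of the H3 sum, more than that of any other H3 copy, and HIST1H3J added 9.06%.

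The other H3 copies changed less. HIST1H3B, the leading copy in both groups, was at 2539, 2484 and 2669 CPM in the knockout libraries, against 1834 and 1814 CPM in the wild-type libraries (log2 fold change 0.49, SE 0.036, adjusted p = 1.02e-15). Its share of the H3 sum was lower, at 32.1% ± 0.612 in the knockout (SD, n = 3) and 48.2% ± 0.493 in the wild type (SD, n = 2). HIST1H3G, the second copy in both groups, was at 1619.8, 1567 and 1574 CPM in the knockout and 992 and 958 CPM in the wild type (log2 fold change 0.70), with shares of 19.9% in the knockout and 25.7% in the wild type. HIST1H3B and HIST1H3G therefore held a smaller part of the family in each knockout library. HIST1H3D was at 1082, 1054 and 1045 CPM in the knockout and 389 and 374 CPM in the wild type (log2 fold change 1.47), and its share was 13.3% in the knockout and 10.1% in the wild type. HIST1H3A and HIST1H3H rose by 2.07 and 2.17 on the log2 scale, to 691 and 369 CPM in the knockout, against 164 and 81.8 CPM in the wild type. HIST2H3D, which encodes an H3 form that differs in a single residue, was at 415, 381 and 406 CPM in the knockout and 366 and 347 CPM in the wild type (log2 fold change 0.17, SE 0.046, adjusted p = 0.00107). Scaling by total counts turns HIST2H3D to -0.10 (adjusted p = 0.0423), and without the second wild-type library it was 0.13 with an adjusted p of 0.0826. Its share of the H3 sum was 5.02% in the knockout and 9.40% in the wild type.

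The 3 remaining H3 copies were low. HIST3H3, a testis H3, had 88, 117 and 139 counts in the knockout libraries, against 2 and 1 in the wild-type libraries, a ratio of group levels of 27.7 (exact 95% interval from counts 9.41 to 135). HIST1H3I had 57, 48 and 39 counts in the knockout libraries, against 1 and 0 in the wild-type libraries, a ratio of 34.8 (6.15 to 1384). Both stood under 9 CPM in the knockout. HIST1H3F overlapped between groups, at 4.82, 3.19 and 5.84 CPM in the knockout and 2.02 and 3.29 CPM in the wild type (log2 fold change 0.80, SE 0.30, adjusted p = 0.0165), and its call was lost under 8 of the alternatives, among them leaving out knockout library 3 (adjusted p = 0.0656) or wild-type library 1 (adjusted p = 0.289). HIST1H3F shares its protein with HIST1H3B, and per kilobase its level was 11.2 CPM in the knockout and 6.46 CPM in the wild type, beside 6238 CPM in the knockout and 4438 CPM in the wild type for HIST1H3B.

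**Figure D3:**
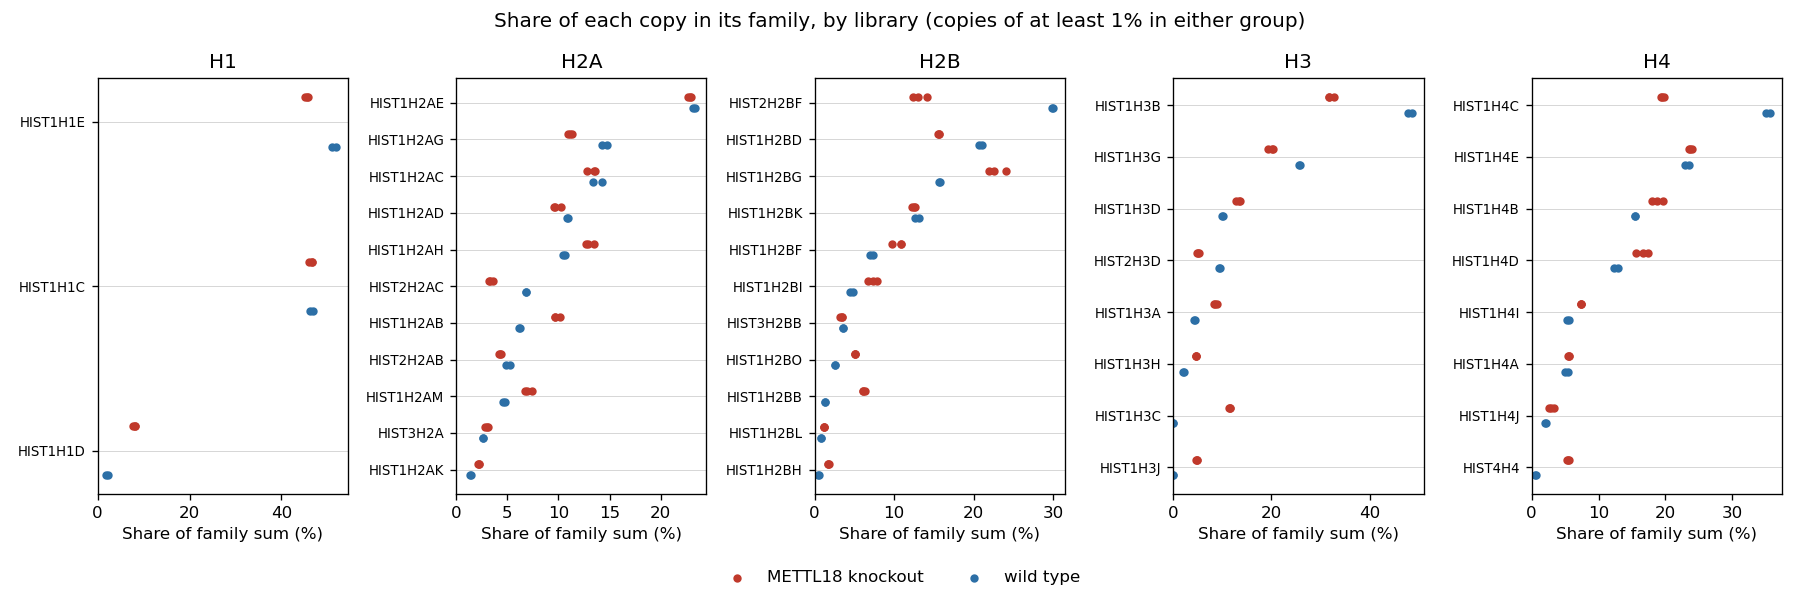
Share of each copy in the sum of its family, by library, for copies with at least 1% in either group. Points are libraries, with the knockout (n = 3) drawn above the wild type (n = 2) for each copy. HIST1H3B, HIST1H4C and HIST2H2BF lie to the left in the knockout, and HIST1H3C, HIST1H3J and HIST4H4 lie away from 0 in the knockout alone.

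H4 copies encode 1 protein, HIST1H4G apart, and their order changed between groups. HIST1H4C led the family in the wild type, at 1667, 1713 and 1682 CPM in the knockout libraries, against 1341 and 1253 CPM in the wild-type libraries (log2 fold change 0.38, SE 0.037, adjusted p = 4.85e-12). Its share was 19.7, 19.5 and 19.3% of the H4 sum in the knockout libraries, against 35.7 and 35.1% in the wild-type libraries. HIST1H4E led in the knockout, at 1979.9, 2108 and 2065 CPM in the knockout libraries, against 863 and 841 CPM in the wild-type libraries (log2 fold change 1.27, SE 0.039, adjusted p = 6.89e-29). The share of HIST1H4E overlapped between groups, at 23.7% in the knockout and 23.3% in the wild type, so the change of leader came with the lower share of HIST1H4C. HIST1H4B was at 1587, 1719 and 1567 CPM in the knockout and 579 and 549 CPM in the wild type (log2 fold change 1.53) and HIST1H4D at 1409, 1372 and 1509 CPM in the knockout and 461 and 459.9 CPM in the wild type (1.64). Both had a larger share in each knockout library, HIST1H4B at 18.8% in the knockout and 15.4% in the wild type, and HIST1H4D at 16.6% in the knockout and 12.6% in the wild type.

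HIST4H4 (transcript ENST00000539745, hg38 chromosome 12, 14770555 to 14771131, minus strand) is the copy that lies alone, away from the clusters. It was at 477, 481 and 464 CPM in the knockout libraries, against 24.6 and 19.2 CPM in the wild-type libraries (log2 fold change 4.43, SE 0.073, adjusted p = 2.32e-38). Its share of the H4 sum was 5.49% ± 0.162 in the knockout (SD, n = 3) and 0.596% ± 0.0817 in the wild type (SD, n = 2), and it supplied 9.08% of the rise of the H4 sum, beside 7.85% from HIST1H4C. The H4 copies HIST1H4I, HIST1H4A and HIST1H4J rose by 1.67, 1.31 and 1.73 on the log2 scale. The low H4 copies HIST1H4L and HIST1H4F were seen mainly in the knockout. HIST1H4L had 23, 25 and 34 counts in the knockout libraries, against 0 and 0 in the wild-type libraries, at least 6.61-fold higher in the knockout when the wild-type group is set to a floor of 3 counts. HIST1H4F had 16, 9 and 14 counts in the knockout libraries, against 1 and 0 in the wild-type libraries, a ratio of 9.43 (exact 95% interval from counts 1.60 to 382). Its call was lost with DESeq2 (adjusted p = 0.0616) and without the second wild-type library (adjusted p = 0.0965).

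Among the linker histones, HIST1H1C and HIST1H1E carried the family in both groups. HIST1H1C was at 3509, 3349 and 3491 CPM in the knockout libraries, against 1405 and 1449 CPM in the wild-type libraries (log2 fold change 1.27, SE 0.036, adjusted p = 7.41e-30). HIST1H1E was at 3501, 3240.1 and 3404 CPM in the knockout libraries, against 1577 and 1576 CPM in the wild-type libraries (log2 fold change 1.10, SE 0.037, adjusted p = 2.10e-27). The H1 rise was thus carried by the copies already in use, with 46.3% of it from HIST1H1C and 41.4% from HIST1H1E. The share of HIST1H1C overlapped between groups, at 46.4% in the knockout and 46.6% in the wild type, and that of HIST1H1E was lower in each knockout library, at 45.5% ± 0.317 in the knockout (SD, n = 3) and 51.5% ± 0.702 in the wild type (SD, n = 2). Per kilobase the levels of HIST1H1C and HIST1H1E were 5373 and 5123 CPM in the knockout and 2223 and 2388 CPM in the wild type. HIST1H1D stood apart from them, at 626, 578 and 578 CPM in the knockout libraries, against 53.2 and 66.6 CPM in the wild-type libraries (log2 fold change 3.31, SE 0.065, adjusted p = 2.04e-34). Its share of the H1 sum was 8.00% ± 0.235 in the knockout (SD, n = 3) and 1.95% ± 0.284 in the wild type (SD, n = 2). HIST1H1B, another linker histone of dividing cells, had 49, 34 and 48 counts in the knockout libraries, against 1 and 1 in the wild-type libraries, a ratio of 15.8 (exact 95% interval from counts 4.30 to 132), and stayed under 4 CPM in all 5 libraries.

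H2A kept its leading copy. HIST1H2AE led in both groups, at 1776, 1772 and 1802 CPM in the knockout libraries, against 904 and 890.0 CPM in the wild-type libraries (log2 fold change 0.99, SE 0.037, adjusted p = 1.06e-25), with shares of 22.8% in the knockout and 23.3% in the wild type. HIST1H2AC was at 992, 1064 and 1059 CPM in the knockout and 520.3 and 542 CPM in the wild type (log2 fold change 0.97), HIST1H2AG at 877, 852 and 878 CPM in the knockout and 576 and 544 CPM in the wild type (0.63) and HIST1H2AD at 797, 759 and 755 CPM in the knockout and 424 and 418 CPM in the wild type (0.87). These copies, like HIST1H2AE, changed by about as much as their family or less. HIST1H2AH and HIST1H2AB changed more, HIST1H2AH at 999, 1054 and 1001 CPM in the knockout and 413 and 398 CPM in the wild type (log2 fold change 1.33) and HIST1H2AB at 746, 797 and 762 CPM in the knockout and 241 and 238 CPM in the wild type (1.68). HIST1H2AB and HIST1H2AE encode the same H2A protein, yet the share of HIST1H2AB was higher in each knockout library (means of 9.83% in the knockout and 6.21% in the wild type) while that of HIST1H2AE was lower. HIST1H2AM, HIST1H2AK and HIST3H2A rose by 1.60, 1.66 and 1.20 on the log2 scale, and HIST2H2AB by 0.78.

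HIST2H2AC was the H2A copy that did not pass the test. It was at 282, 251 and 259 CPM in the knockout libraries, against 266 and 261 CPM in the wild-type libraries (log2 fold change 0.00, SE 0.05, adjusted p = 0.940), and the groups overlapped. Its fold change was negative under 6 of the alternatives that kept all libraries, and scaling by total counts called it lower, at -0.27 (adjusted p = 8.90e-06). The share of HIST2H2AC was 3.38% ± 0.228 in the knockout (SD, n = 3) and 6.83% ± 0.0203 in the wild type (SD, n = 2). The low copies HIST1H2AL and HIST1H2AJ were seen almost entirely in the knockout. HIST1H2AL had 100, 111 and 112 counts in the knockout libraries, against 4 and 2 in the wild-type libraries (log2 fold change 3.68 ± 0.37). HIST1H2AJ had 37, 53 and 42 counts in the knockout libraries, against 0 and 0 in the wild-type libraries, at least 10.6-fold higher in the knockout against the floor of 3 counts. HIST1H2AJ is the tested copy with the fewest windows of its own, as given below, so its counts are uncertain.

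In H2B the leading copy differed between groups. HIST2H2BF led in the wild type and is the 1 copy called lower, at 1276, 1165 and 1081 CPM in the knockout libraries, against 1529 and 1521 CPM in the wild-type libraries (log2 fold change -0.38, SE 0.048, adjusted p = 2.22e-07). Its share was 14.1, 13.1 and 12.4% of the H2B sum in the knockout libraries, against 29.9 and 30.0% in the wild-type libraries. HIST1H2BG led in the knockout, at 1981, 2012 and 2104 CPM in the knockout libraries, against 804 and 794 CPM in the wild-type libraries (log2 fold change 1.35, SE 0.039, adjusted p = 8.86e-30), with a share of 22.9% ± 1.13 in the knockout (SD, n = 3) and 15.7% ± 0.0331 in the wild type (SD, n = 2). HIST1H2BG was thus rank 1 in the knockout and rank 3 in the wild type, HIST2H2BF was rank 3 in the knockout and rank 1 in the wild type, and HIST1H2BD was rank 2 in both. HIST1H2BD was at 1405, 1394 and 1362 CPM in the knockout and 1058 and 1065 CPM in the wild type (log2 fold change 0.39) with a share of 15.6% in the knockout and 20.8% in the wild type. HIST1H2BK was at 1142, 1113 and 1065 CPM in the knockout and 673 and 640.1 CPM in the wild type (0.75) and HIST1H2BF at 878, 965 and 944 CPM in the knockout and 374 and 353 CPM in the wild type (1.35). HIST1H2BF, HIST1H2BG and HIST1H2BI encode the same H2B protein and rose by 1.35, 1.35 and 1.46.

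Some H2B copies that were minor in the wild type rose most. HIST1H2BM was at 67.3, 58.4 and 57.0 CPM in the knockout libraries, against 3.03 and 2.20 CPM in the wild-type libraries (log2 fold change 4.53, SE 0.16, adjusted p = 3.68e-26). HIST1H2BB was at 545, 564 and 526 CPM in the knockout libraries, against 70.0 and 67.7 CPM in the wild-type libraries (log2 fold change 2.98, SE 0.057, adjusted p = 3.80e-36). HIST1H2BH was at 153, 149 and 154 CPM in the knockout libraries, against 24.8 and 29.1 CPM in the wild-type libraries (log2 fold change 2.50, SE 0.077, adjusted p = 1.08e-28). The share of HIST1H2BB was 6.13% in the knockout and 1.35% in the wild type, which placed it at rank 7 in the knockout and rank 9 in the wild type. HIST1H2BM remained under 1% of the H2B sum in each library, despite its fold change. HIST1H2BO and HIST1H2BL rose by 1.78 and 1.39, and HIST3H2BB by 0.71. Under a required fold of 1.5, HIST2H2BF was no longer called (adjusted p = 1), since its change is smaller than that.

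The 5 copies that were not tested were close to silent in both groups. The linker histone copy HIST1H1A had 6, 0 and 2 counts in the knockout libraries, against 0 and 0 in the wild-type libraries. The testis copies HIST1H2AA and HIST1H2BA had 0, 1 and 1 counts in the knockout libraries, against 0 and 0 in the wild-type libraries (HIST1H2AA), and 1, 2 and 2 counts in the knockout libraries, against 0 and 3 in the wild-type libraries (HIST1H2BA). HIST1H2AI had 4, 4 and 11 counts in the knockout libraries, against 2 and 1 in the wild-type libraries, and HIST1H4G had 1, 0 and 0 counts in the knockout libraries, against 0 and 0 in the wild-type libraries. A difference between groups was not detectable at this depth for these copies, where 3 counts over a group correspond to 0.0636 CPM in the knockout and 0.263 CPM in the wild type.

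Copies that were low in the wild type had the larger fold changes. The 11 tested copies under 10 CPM in the wild type had a median log2 fold change of 4.74, or 3.91 with the copies without wild-type counts at their bounds, and together held 3.40, 3.38 and 3.45% of the histone counts in the knockout libraries, against 0.0437 and 0.0408% in the wild-type libraries. The 8 copies from 10 to 100 CPM had a median of 2.34 and held 6.55, 6.58 and 6.51% in the knockout, against 2.20 and 2.24% in the wild type. The 31 copies at 100 CPM or more had a median of 1.20 and held 90.1, 90.0 and 90.0% in the knockout, against 97.8 and 97.7% in the wild type. The bulk of the histone footprints thus stayed on the same 31 copies. To keep the level and the change from sharing a library, the level was also taken from 1 wild-type library and the change against the other. Spearman's rho over the 50 tested copies was then -0.78 and -0.79, and within H2A, H2B, H3 and H4 it ranged from -0.70 to -0.89, as a description over copies that share libraries. The wild-type libraries were close to each other, so this split removes only shared counting error. The change still holds the wild-type level, so rho is no separate support for the pattern. The limits of 10 and 100 CPM were chosen after the data were seen, and copies that pass the filter only through the knockout have to lie high on this scale.

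**Figure D4:**
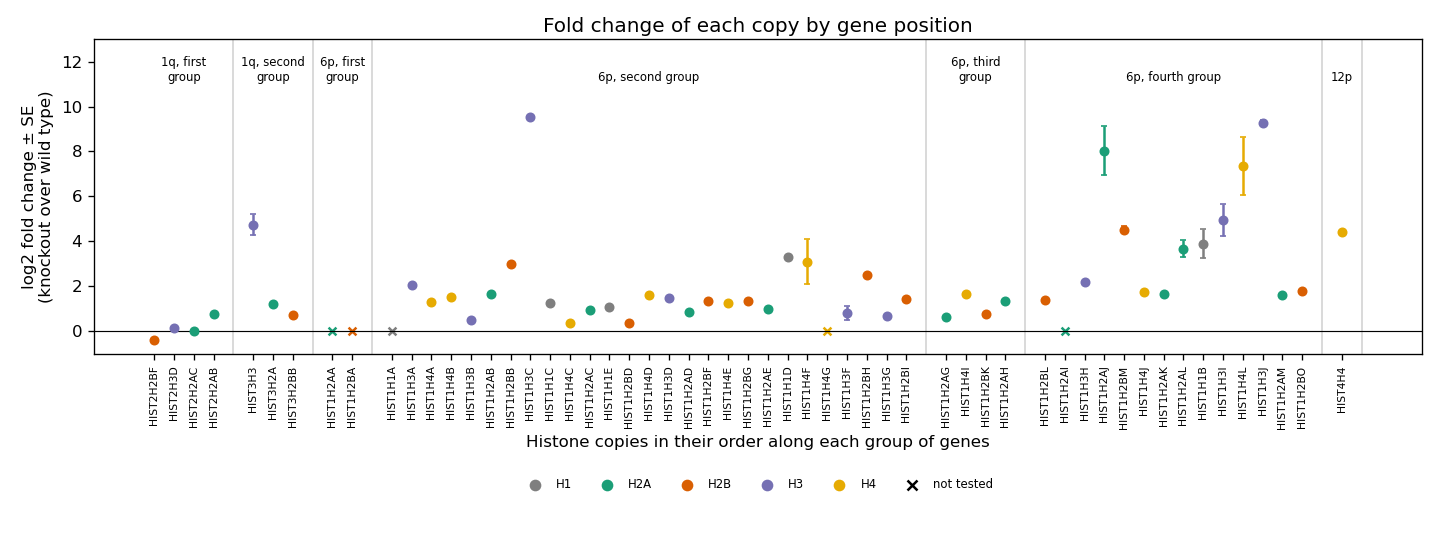
Log2 fold change (knockout over wild type, edgeR) of each copy in gene order, by group of neighbouring genes. Points are estimates, bars are SE, colours are families, and crosses drawn at 0 stand for the 5 copies that were not tested. The 4 copies of the first group on 1q lie under 1, and all tested copies of the fourth group on 6p lie above 1. HIST1H2AJ and HIST1H4L had no wild-type counts, so their height depends on the prior count. For copies with few wild-type counts the bars understate the error.

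The copies were grouped by position, with a gap of more than 250000 bases between neighbours opening a new group. This gap was chosen after the data were seen and the groups were not tested against each other. The 27 copies on chromosome 6 from 26017085 to 26273356 held 77.5% of the histone counts in the knockout and 74.1% in the wild type, with 25 of 25 tested copies higher. Such counts are not particular to a group, since 48 of all 50 tested copies were higher, beside 37.8% of all rows. The 14 copies on chromosome 6 from 27807444 to 27893843 held 5.80% in the knockout and 2.93% in the wild type. All 13 tested copies of that group were higher, with a median log2 fold change of 3.68, or 2.72 with HIST1H2AJ and HIST1H4L at their bounds, and a range of 1.39 to 9.25. HIST1H2AL, HIST1H1B, HIST1H3I, HIST1H3J and HIST1H2BM of this group also stood under 10 CPM in the wild type. Copies of that kind that pass the filter only through the knockout have to be high, so the median is no separate trait of the group. The 4 copies on chromosome 6 from 27133042 to 27147515 were all higher, at 0.63 to 1.67. On chromosome 1 from 149810406 to 149887916 lie the 4 HIST2 copies with a row, and their sum was not higher in the knockout. It was 2312, 2121 and 2088 CPM in the knockout libraries, against 2364 and 2316 CPM in the wild-type libraries, so each knockout library was below both wild-type libraries, with a log2 ratio of the means of -0.11. Of these 4 copies, HIST2H2AB and HIST2H3D were called higher, HIST2H2BF lower, and HIST2H2AC did not pass. They held 5.33% of the histone counts in the knockout and 12.0% in the wild type, and 3 of the 4 are the copies with the lowest fold changes of the 50. The 3 HIST3 copies on chromosome 1 from 228424845 to 228460470 rose together, by a log2 ratio of 0.92 of their sum.

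Neighbouring H2A and H2B genes often start back to back. Among the copies with a row there were 8 such divergent pairs, with annotated starts 234 to 331 bases apart. In each of the 6 with both members tested, both were called higher. So were 48 of all 50 tested copies, beside 37.8% of all rows, and the count is not particular to the pairs. In the pair with the most footprints, HIST1H2BG and HIST1H2AE, the fold changes were 1.35 and 0.99, and in the pair HIST1H2AM and HIST1H2BO they were 1.60 and 1.78. By fitted values the H2B copy had the larger change in 3 pairs and the H2A copy in the other 3. The order is not settled for the pair with HIST1H2AJ, which had no wild-type counts. HIST1H2AJ was at least 10.6-fold higher and HIST1H2BM was 23.3-fold higher. HIST1H2BM and HIST1H2AJ, 304 bases apart, were both higher in the knockout, where their levels were 60.9 and 2.79 CPM, against 2.61 and 0 CPM in the wild type. In the pair HIST1H2BL and HIST1H2AI, HIST1H2BL was at 107 CPM in the knockout and 40.9 CPM in the wild type, and HIST1H2AI was under 1 CPM in each library.

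Near-identical copies can share footprints, and the counting rule for reads that match several places was not among the sources used here. Median identity between pairs of coding sequences of equal length was 85.4% in H2A, 89.0% in H2B, 85.2% in H3 and 83.7% in H4. Every window of 28 bases, the shortest footprint selected, was therefore compared with the coding sequences of the 13960 rows found in the annotation. At least 0.5 of the windows occurred in no other row for 53 of the 55 copies, and the share was 0.901 for HIST1H3C, 0.995 for HIST1H3J, 0.972 for HIST4H4 and 0.576 for HIST2H2BF. The 2 exceptions were HIST1H2AJ (0.136) and HIST1H2AI (0.156). Family sums left out the split between copies of a family, and without these 2 copies they kept their fold changes to 2 decimals. Across the 50 tested copies, Spearman's rho between the share of unique windows and the fold change was 0.16, and between the GC content at the wobble codon positions and the fold change -0.23. Windows with a mismatch were not counted as shared, and copies without a row were not compared, which makes these shares too high. Footprints longer than 28 bases would match fewer copies, which makes the shares too low for them.

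The genes that act on histone mRNA moved in both directions. Of 32 tested genes for transcription, processing and turnover of these mRNAs, 20 were higher, 6 lower and 6 did not pass, with a median log2 fold change of 0.49. Among all rows tested, 37.8% were higher and 36.6% lower. Scaled by total counts, 15 of the 32 genes were higher and 9 lower. SLBP was at 239, 263 and 253 CPM in the knockout libraries, against 119 and 121 CPM in the wild-type libraries (log2 fold change 1.07, SE 0.055, adjusted p = 8.61e-21). CASP8AP2, a protein of the histone locus body, was at 69.7, 74.4 and 70.1 CPM in the knockout and 32.2 and 37.3 CPM in the wild type (log2 fold change 1.04), and NPAT, the coactivator of these genes, at 60.2, 58.9 and 62.2 CPM in the knockout and 41.6 and 50.5 CPM in the wild type (0.40). NPAT did not pass when scaled by total counts. CCNE1, the cyclin whose kinase complex acts on NPAT, was at 23.4, 23.8 and 25.1 CPM in the knockout and 5.05 and 7.13 CPM in the wild type (1.99). LSM10 and LSM11 are the proteins particular to the U7 snRNP that cuts the 3′ end. LSM10 was at 5.81, 5.47 and 5.33 CPM in the knockout and 6.74 and 6.95 CPM in the wild type (log2 fold change -0.31, adjusted p = 0.148) and LSM11 at 5.15, 6.76 and 7.49 CPM in the knockout and 4.71 and 6.95 CPM in the wild type (0.16, adjusted p = 0.498). Of the Sm proteins, SNRPD3, SNRPG, SNRPE and SNRPF rose by 1.02, 0.87, 0.69 and 0.56, and SNRPB fell by 0.30. CPSF2, a subunit of the cleavage complex, fell by 0.51, while CSTF1 and the mRNA surveillance helicase UPF1 rose by 1.07 and 0.65. ZNF473 and ERI1 had no row in the table.

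Proteins that receive or carry histones also split. Of 27 tested histone chaperones and importins, 16 were higher, 8 lower and 3 did not pass, with a median of 0.33, and 11 were higher and 11 lower when scaled by total counts. Over all rows, with TMM factors, 37.8% were higher and 36.6% lower. NASP, a chaperone that keeps a reserve of H3 and H4, was at 1177, 1179 and 1152 CPM in the knockout libraries, against 591 and 591 CPM in the wild-type libraries (log2 fold change 0.99, SE 0.039, adjusted p = 8.01e-25). HAT1, which acetylates new H4, was at 345, 387 and 376 CPM in the knockout and 235 and 234 CPM in the wild type (log2 fold change 0.66), and TONSL, a reader of new H4, at 38.7, 34.0 and 36.5 CPM in the knockout and 13.0 and 14.8 CPM in the wild type (1.39). IPO7, SPTY2D1 and DNAJC9 rose by 0.60, 0.83 and 0.66. Among those lower, IPO9, an importin of H2A and H2B, was at 113, 111 and 107 CPM in the knockout and 166 and 174 CPM in the wild type (-0.62), and SUPT6H and ATRX fell by 0.57 and 0.51. MCM2 stands in this list and in the next one.

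Genes of DNA replication were mostly higher. Of 43 tested, 37 were higher, 4 lower and 2 did not pass, with a median of 0.75, and scaled by total counts 31 were higher and 6 lower. With TMM factors, 37.8% of all rows were higher and 36.6% lower. The origin licensing factor CDT1 was at 199.6, 178 and 191 CPM in the knockout libraries, against 37.4 and 33.1 CPM in the wild-type libraries (log2 fold change 2.42, SE 0.074, adjusted p = 8.19e-29). The helicase and ribonucleotide reductase genes MCM4, MCM5, MCM6, GINS2 and RRM2 rose by 1.18, 1.28, 1.08, 1.83 and 1.02, and UNG and RFC3 by 1.45 and 1.39. POLA1, POLE, TYMS and RFC2 were lower, by fold changes of -0.77, -0.74, -0.41 and -0.32. Of the proliferation markers, PCNA was at 752, 755 and 746 CPM in the knockout and 508 and 516 CPM in the wild type (0.55), MKI67 at 841, 794 and 739 CPM in the knockout and 750.5 and 742 CPM in the wild type (0.09, adjusted p = 0.0726) and TOP2A at 921, 934 and 909 CPM in the knockout and 1956 and 2035 CPM in the wild type (-1.11). Scaled by total counts MKI67 was called lower, at -0.19. The replication genes moved with the histone copies, and their part in the result was not tested.

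Replication-independent histones moved in both directions, and H3F3A and H3F3B had no row. Of 11 such rows, 9 were tested, with 5 higher, 1 lower and 3 not passed, and a median of 0.11. The shares over all rows were 37.8% higher and 36.6% lower. Scaled by total counts, 3 of the 9 were higher and 6 lower. H2AFZ, the main replacement form of H2A, was at 896, 899 and 856 CPM in the knockout and 823 and 811 CPM in the wild type (log2 fold change 0.11), and total counts turn it to -0.16. H2AFX was at 182, 170.5 and 188 CPM in the knockout and 191 and 163 CPM in the wild type (0.02, adjusted p = 0.702). H3F3C was at 327, 328 and 327 CPM in the knockout and 371 and 362 CPM in the wild type (-0.16). The larger changes were those of H2AFJ, at 28.9, 27.6 and 24.2 CPM in the knockout and 3.20 and 3.66 CPM in the wild type (2.97), and of the centromere histone CENPA, at 42.4, 42.0 and 43.3 CPM in the knockout and 14.1 and 15.9 CPM in the wild type (2.84-fold higher, adjusted p = 2.39e-16). H1FX rose by 0.45 on the log2 scale. The difference between these rows and the 55 copies was not tested.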

How the data were processed

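The authors deposited raw counts of ribosome footprints, whole numbers per transcript and library, in 1 table of 14084 rows, and 387 rows had no count in any library. The submitters' processing notes name Bowtie and the build hg38. Neither the counting tool nor the annotation, nor how multiply matching reads were handled, is given in the sources used here. Per the labels' protocols, lysates were digested with RNase I and footprints of about 28 to 32 bases were cut from a gel after monosome isolation. PolyA RNA is the molecule named in the labels, unlike that protocol, and whether a poly(A) selection was made is unknown.

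Groups came from the genotype labels. The test was edgeR's quasi-likelihood test (version 4.0.16, R 4.3.3) with a robust fit, TMM factors and group as the only term, after filterByExpr (count minimum 10, total minimum 15). The test was checked on simulated counts in which few rows changed, evenly in both directions. In these data 74.4% of rows were called, so that check does not cover this setting. Family sums replaced the copies of a family by 1 row in the same fit. The SE of a fold change is its absolute log2 value divided by the square root of the test's F statistic. It understates the error for copies with few wild-type counts, among them HIST1H3C, HIST1H3J, HIST1H2BM and HIST1H2AL. Where a group had no counts, the fold was taken against 3 counts over that group, and a ratio with 1 to 3 counts carries an exact 95% binomial interval; both cover counting error only. Depth was 4887380 to 17629199 counts per library. Replicates were compared before averaging, by chi-square per degree of freedom. Over the copies it was 2.06 between the wild-type libraries (chi-square p = 8.78e-05) and 17.5 to 23.2 between knockout libraries. Over all rows compared it was 1.14 between the wild-type libraries, close to counting error alone, and 2.73 to 3.48 between knockout libraries. Each library counted as 1 sample, and the wild-type spread in particular may be technical.

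Named copies were those with at least 10% of their family sum in either group and the 3 highest and 2 lowest fold changes of each family, and every other copy was accounted for. Of each gene list, up to 8 genes with the smallest adjusted p were eligible, with SLBP, NPAT, CASP8AP2, LSM10, LSM11, ZNF473 and ERI1 added. H2AFX and other list genes beyond these were named as examples after their values were seen. The members and lists were chosen with earlier results of these data known. GENCODE release 29 (hg38) gave coordinates and coding sequences, and RefSeq (GRCh38.p14) gave promoters. Alternatives were RLE, upper-quartile or total-count scaling, DESeq2 1.42.0, limma-voom (limma 3.58.1), a filter at 10 CPM on average or none, a required fold of 1.5, the replicate number as a block, thinned knockout libraries, each library left out, and other choices of the members summed. Python 3.11.15, pandas 2.3.3, numpy 2.4.6, scipy 1.17.1 and matplotlib 3.10.9 were used.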

Additional observations from a re-analysis of the deposited data

How the results depend on the processing

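The 5 family sums stayed higher in the knockout, and past the threshold, under every alternative run. They were lowest with total counts (H1 1.01, H2A 0.75, H2B 0.53, H3 0.80, H4 0.97 on the log2 scale), a scaling that moves the median of all rows by -0.27 and turns the split of all calls to 2982 higher and 5597 lower. Without the copy that leads in the knockout, H3 was 1.47 and H2B 0.68. Copies called higher numbered 40 (mean CPM of at least 10, which tests fewer copies) to 48. With a required fold of 1.5, 42 copies were higher and 0 lower, and 2011 of all rows were higher and 2129 lower. In that setting the processing list had 10 higher and 2 lower, the chaperones 4 and 0, replication 23 and 2, and the replication-independent histones 2 and 0. With total counts 3 copies were lower, and the replication-independent histones had 3 higher and 6 lower. They had 3 higher with upper-quartile factors, with a mean CPM of at least 10, and without either wild-type library, within a range of 3 to 6 over libraries left out. The histone share of all counts differed by 1.60 percentage points, by 2.30 without the 100 other rows with most counts, and by 1.58 to 1.62 with a library left out. HIST2H2AC changed sign with RLE factors (-0.0052), upper-quartile factors (-0.038), total counts (-0.27), a mean CPM of at least 10 (-0.055), DESeq2 (-0.0051), thinned knockout libraries (-0.042) and over libraries left out (-0.050 to 0.034). HIST2H3D changed sign with total counts (-0.10). The difference in the HIST1H1C share, -0.13 points, ran from -0.43 to 0.17 over libraries left out. The cause of these changes was not tested. Whether replicate numbers pair the samples is not known. Deviations of libraries with the same number had correlations of 0.0035 and 0.019. The wild-type libraries differ by little more than counting error (chi-square per degree of freedom 1.14), so these values cannot exclude pairing. With the number as a replicate block 47 copies were higher and 1 lower in edgeR's test, and 1 copy (HIST1H3F) lost its call (adjusted p = 0.0581). The depth of the wild-type libraries limits copies under 1 CPM, and shared reads limit HIST1H2AJ and HIST1H2AI.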
